A study of Sus scrofa with 13 samples.

Results

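HSPB1, HSPB8, CRYAB, BAG3 and HSF1 are the small heat shock proteins, their co-chaperone and the transcription factor whose RNA was followed here in each pig liver. The 5 genes were matched by their symbol in the table of raw counts, which holds 35670 genes, and each symbol had 1 row (ENSSSCG00000039962 for HSPB1, ENSSSCG00000009844 for HSPB8, ENSSSCG00000036724 for CRYAB, ENSSSCG00000010686 for BAG3 and ENSSSCG00000005917 for HSF1). All 5 passed the filter on low counts, along with 16481 genes in all. They were chosen by their counts in these same livers: the normalized counts per library, the group means and the fold changes between groups were known when the 5 genes were put together. Their levels and fold changes are therefore a description. Where members past a threshold are counted or named, this is no independent evidence, and the share of all genes past it stands beside the count.

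Small heat shock proteins bind unfolding proteins before they aggregate and hold them, without using ATP, until HSP70 chaperones can refold them. HSPB1 (also HSP27), HSPB8 and CRYAB (alpha B-crystallin) belong to this family. BAG3 is a co-chaperone that bridges small heat shock proteins, HSPB8 above all, to HSP70 and steers damaged proteins towards autophagy. HSF1 is the transcription factor that switches on heat shock genes when unfolded proteins build up, and it is regulated mainly at the protein level.

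The study took liver biopsies from female Yorkshire pigs under anesthesia and sequenced 13 libraries of poly-A RNA. Baseline livers had no ischemia and no reperfusion (2 libraries, replicates 1a and 2). Ischemic controls had 45 min of total vascular exclusion and 6 h of reperfusion and received no cells (3 livers). The arterial and portal infusion groups (4 livers each) underwent that same period of ischemia and then 6 h of reperfusion, and were given 3000000 mesenchymal stromal cells of human bone marrow (BM-MSCs), expanded in culture, per kg body weight, by hepatic artery or by portal vein according to the group. All pigs had the same sedation, ventilation and midline laparotomy. Per the study's methods, biopsies were taken before the vessels were clamped and again at 6 h, so baseline livers belonged to pigs that went on to ischemia and reperfusion. Which of the livers at 6 h, if any of those sequenced, came from the same pigs as the baseline libraries is not given in the sources used here, nor is the age of the pigs. Biopsies came from the left and right lobes, central and peripheral, and the site of each library is not given. The paper found less RNA of human B2M, its marker of the cells, in the left lobe after portal than after arterial infusion. Lobe therefore cannot be told apart from liver or route here.

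The total count on genes was between 18975413 and 35949178 per library, with a median of 30260803. All 8 hepatocyte marker genes looked for, ALB and APOA1 among them, were present, and their summed normalized count was between 1016420 and 3932470. The libraries of ischemic control 2, arterial infusion 1, portal infusion 1 and portal infusion 4 stood apart from the other 9. In these 4 libraries, genes that span up to 3000 bases of the genome had a median level 0.59 to 1.30 above the baseline mean on the log2 scale. In the other 7 livers at 6 h that median was between 0.25 and 0.56. Genes that span over 30000 bases had medians between -0.87 and -0.49 in the same 4 libraries. They also had the lowest hepatocyte sums of the 13, at 1016420 in portal infusion 1, 1202170 in portal infusion 4, 1528050 in ischemic control 2 and 1868060 in arterial infusion 1, against 2041700 and 3932470 at baseline. The 3 livers highest in HSPB1 are among these 4, and the part of a lower hepatocyte share in their levels was not tested. Results for the members are therefore also given without these libraries.

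Levels are given as normalized counts, the raw counts divided by DESeq2's size factors. A normalized count follows transcript length, so the level of one gene is not set against the level of another, and members are compared only by their change from baseline. In bulk tissue, fewer cells of a type and less RNA per cell cannot be told apart.

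In the RefSeq annotation of Sscrofa11.1, HSPB1 occupies 10038074 to 10039441 of chromosome 3 and is the most compact of the 5 genes, with a span of 1368 bases. Its normalized count was 327 and 171 in baseline 1a and 2, from 424 and 162 reads. Ischemic controls 1 to 3 had 987, 12303 and 15609. Arterial infusions 1 to 4 had 48227, 8309, 1141 and 10987, and portal infusions 1 to 4 had 108913, 1149, 1838 and 19099. Every liver at 6 h lay above both baseline libraries, and each of the 3 groups at 6 h held livers from both the low and the high end of this range.

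The lowest liver at 6 h, ischemic control 1, had 3.97 times the baseline mean of HSPB1, and the highest, portal infusion 1, had 437 times. In portal infusion 1, HSPB1 stood at 4208 CPM (its reads scaled to a fixed total of reads on genes), against 13.7 and 6.03 in the baseline libraries. Over the 11 livers at 6 h the SD of HSPB1 on the log2 scale was 2.31, where the median gene had 0.91. Only 736 of the 16481 genes tested had a larger SD. Group means were 249 ± 110 (SD, n = 2) at baseline, 9633 ± 7668 (SD, n = 3) in ischemic controls, 17166 ± 21120.1 (SD, n = 4) after arterial and 32750 ± 51450 (SD, n = 4) after portal infusion. The order of the 3 groups at 6 h is smaller than the spread within each of them, and their ranges overlap.

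**Figure D1:**
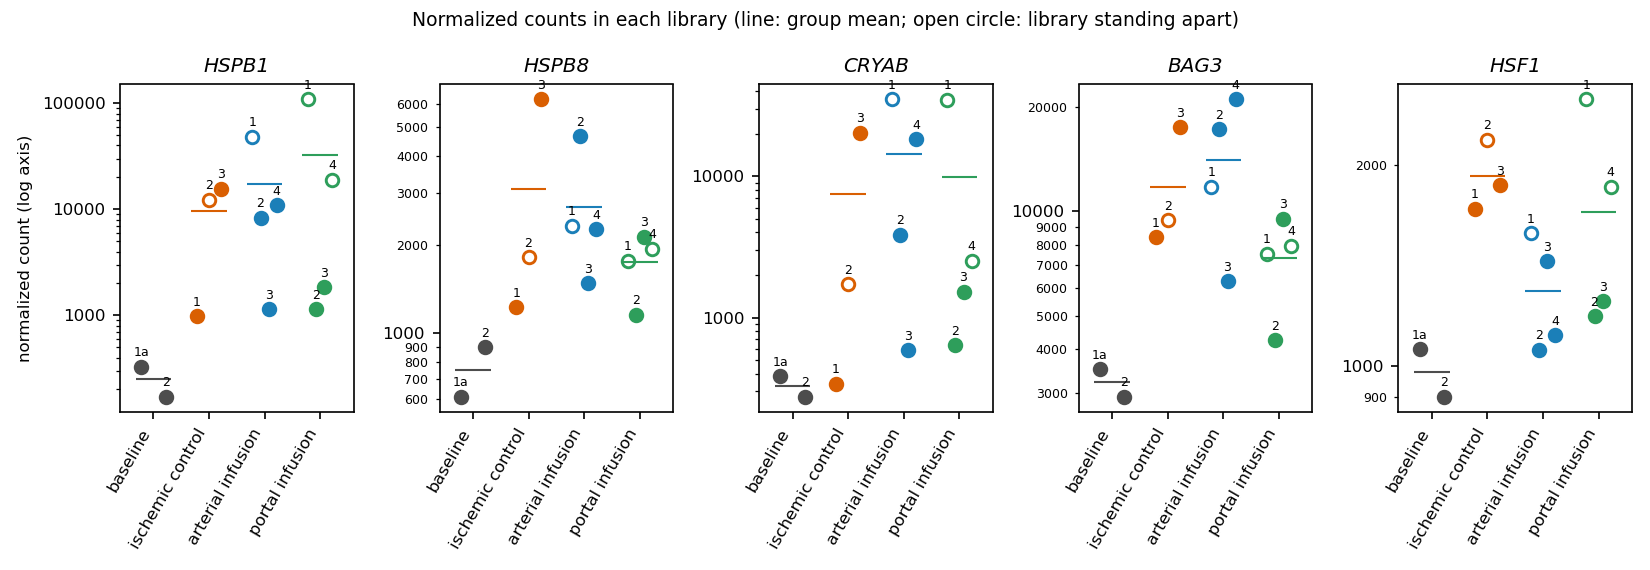
Normalized counts (log axis) of HSPB1, HSPB8, CRYAB, BAG3 and HSF1 in each of the 13 libraries, 1 point per library with its replicate number, the line being the group mean. Open circles are ischemic control 2, arterial infusion 1, portal infusion 1 and portal infusion 4; HSPB1 runs from 171 at baseline to 108913 in portal infusion 1, while HSF1 stays between 900 and 2511.

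CRYAB, on chromosome 9 from 39638505 to 39643530, had a normalized count of 385 and 275 at baseline. Ischemic controls 1 to 3 had 341, 1716 and 20283. Arterial infusions 1 to 4 had 35018, 3846, 587 and 18330, and portal infusions 1 to 4 had 34815, 638, 1526 and 2532. Ischemic control 1 lay within the range of the baseline libraries, and the other 10 livers lay above it. Group means were 330.1 ± 77.5 (SD, n = 2) at baseline, 7447 ± 11138 (SD, n = 3) in ischemic controls, 14445 ± 15734 (SD, n = 4) after arterial and 9878 ± 16643 (SD, n = 4) after portal infusion, and the 3 groups at 6 h overlap. The SD of CRYAB over the 11 livers was 2.46 on the log2 scale, and 435 of the genes tested had a larger one.

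The count of CRYAB has a limit of its own. In the RefSeq annotation the gene shares 3414 bases with HSPB2, another small heat shock protein gene, and also overlaps C9H11orf1. The libraries were non-directional, so reads from a shared stretch cannot be given to one gene by strand. HSPB2 had no row under its symbol and is not analysed here. HSF1 overlaps DGAT1 by 135 bases, and HSPB1, HSPB8 and BAG3 overlap no annotated gene.

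HSPB1 and CRYAB were high in the same livers, but not in equal measure. In ischemic control 3 the level of HSPB1 was 62.7 times and that of CRYAB 61.4 times the baseline mean. In arterial infusion 4 these values were 44.1 and 55.5, and in arterial infusion 1 they were 194 and 106. Ischemic control 2 and portal infusion 4 differ from this, with HSPB1 at 49.4 and 76.7 times its baseline mean and CRYAB at 5.20 and 7.67 times. Relative to baseline, the ratio of HSPB1 to CRYAB was 9.51 and 10.0 in these livers, and between 0.795 and 4.15 in the other livers at 6 h. Both are among the 4 libraries that stood apart, as are arterial infusion 1 and portal infusion 1, with ratios of 1.83 and 4.15. In ischemic control 2 the median log2 level over baseline was 1.30 for genes in the span range of HSPB1 and 0.69 for those in the range of CRYAB. In portal infusion 4 these medians were 0.59 and 0.26. The part of span in the ratios was not tested.

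HSPB8, on chromosome 14 from 33626125 to 33639824, had 610 and 897 normalized counts at baseline. The controls had 1229, 1816 and 6211, the arterial livers 2315, 4655, 1480 and 2250, and the portal livers 1762, 1157, 2126 and 1935. All 11 livers at 6 h lay above both baseline libraries, from 1.54 times the baseline mean in portal infusion 2 to 8.24 times in ischemic control 3. Group means were 753 ± 203 (SD, n = 2) at baseline, 3085 ± 2723 (SD, n = 3) in controls, 2675 ± 1374 (SD, n = 4) after arterial and 1745 ± 419 (SD, n = 4) after portal infusion. The mean of the controls rested on ischemic control 3, and the ranges of the 3 groups at 6 h overlap.

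BAG3 lies on the same chromosome as HSPB8, from 129510240 to 129533998. Its normalized count was 3501 and 2922 at baseline, and 8413, 9421 and 17495 in ischemic controls 1 to 3. Arterial infusions 1 to 4 had 11774, 17281, 6283 and 21050, and portal infusions 1 to 4 had 7549, 4245, 9535 and 7967. Every liver at 6 h lay above both baseline libraries, from 1.32 times the baseline mean in portal infusion 2 to 6.55 times in arterial infusion 4. The arterial mean of 14097 ± 6453 (SD, n = 4) was the highest and the portal mean of 7324 ± 2224 (SD, n = 4) the lowest at 6 h, with controls at 11776 ± 4978 (SD, n = 3) and baseline at 3212 ± 409 (SD, n = 2). Arterial infusion 3 lay within the range of the portal livers, so these groups overlap too.

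HSF1, on chromosome 4 from 463531 to 486483, varied least of the 5 genes. It had 1060 and 900 normalized counts at baseline and 1721, 2185 and 1866 in ischemic controls 1 to 3. Arterial infusions 1 to 4 had 1582, 1058, 1437 and 1113, and portal infusions 1 to 4 had 2511, 1189, 1250.1 and 1857. All 3 controls lay above both baseline libraries and above all 4 arterial livers, and arterial infusion 2 lay within the baseline range. Over the 11 livers at 6 h its SD was 0.41 on the log2 scale, and 14946 of the genes tested had a larger one. Group means were 980 ± 113 (SD, n = 2) at baseline, 1924 ± 237 (SD, n = 3) in controls, 1297 ± 253 (SD, n = 4) after arterial and 1702 ± 618 (SD, n = 4) after portal infusion.

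Livers after ischemia and reperfusion were compared with livers before clamping through the ischemic controls and baseline. The controls had also spent the time of ischemia and 6 h more under anesthesia with an open abdomen, which cannot be told apart from ischemia and reperfusion here. The log2 fold change was 5.24 with a standard error of 2.00 for HSPB1, 4.49 with 2.07 for CRYAB, 2.04 with 0.68 for HSPB8, 1.87 with 0.58 for BAG3 and 0.96 with 0.40 for HSF1, while the median over all genes tested was 0.0048. By the quasi-likelihood test of edgeR (Benjamini-Hochberg), 0 of the 5 members had an adjusted p under 0.05, as did 0% of the genes tested. The 5 members all had an unadjusted p under 0.05, where 4.37% of all genes did. DESeq2 fitted to the 5 libraries of these groups called HSPB1 and BAG3, among 1.02% of genes, and DESeq2 over all 13 libraries called 0 members, among 0.0204%. With no filter on low counts edgeR called HSPB1 and CRYAB, among 0.12% of genes. Controls and baseline did not overlap, with controls higher, for 4 of the 5 members (all but CRYAB) and for 14.8% of all genes, and 16.3% of all genes were lower without overlap. The members were named with this contrast known, so these counts carry no weight of their own.

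Single livers set the size of 2 of these changes. Without ischemic control 3 the log2 fold change of CRYAB against baseline was 1.64 and that of HSPB8 was 1.03. That of HSPB1 stayed between 4.74 and 5.80 with each library left out in turn, that of BAG3 between 1.49 and 2.04 and that of HSF1 between 0.81 and 1.10. Without the 4 libraries that stood apart the values were 5.05 for HSPB1, 4.96 for CRYAB, 2.31 for HSPB8, 2.02 for BAG3 and 0.89 for HSF1. Taking all 11 livers at 6 h together against baseline gave 6.07 for HSPB1, 4.89 for CRYAB, 1.67 for HSPB8, 1.71 for BAG3 and 0.69 for HSF1. In that comparison HSPB1, HSPB8 and BAG3 did not overlap with baseline, where 3.3% of all genes were higher in every liver at 6 h. Of the 5 members 4, all but HSF1, had an unadjusted p under 0.05, against 4.78% of all genes. DESeq2 over the 13 libraries called HSPB1, among 0.0571% of genes, and edgeR with no filter called HSPB1 and CRYAB, among 0.112%. Without portal infusion 1 the value of HSPB1 was 5.37, and without ischemic control 3 that of CRYAB was 3.93.

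**Figure D2:**
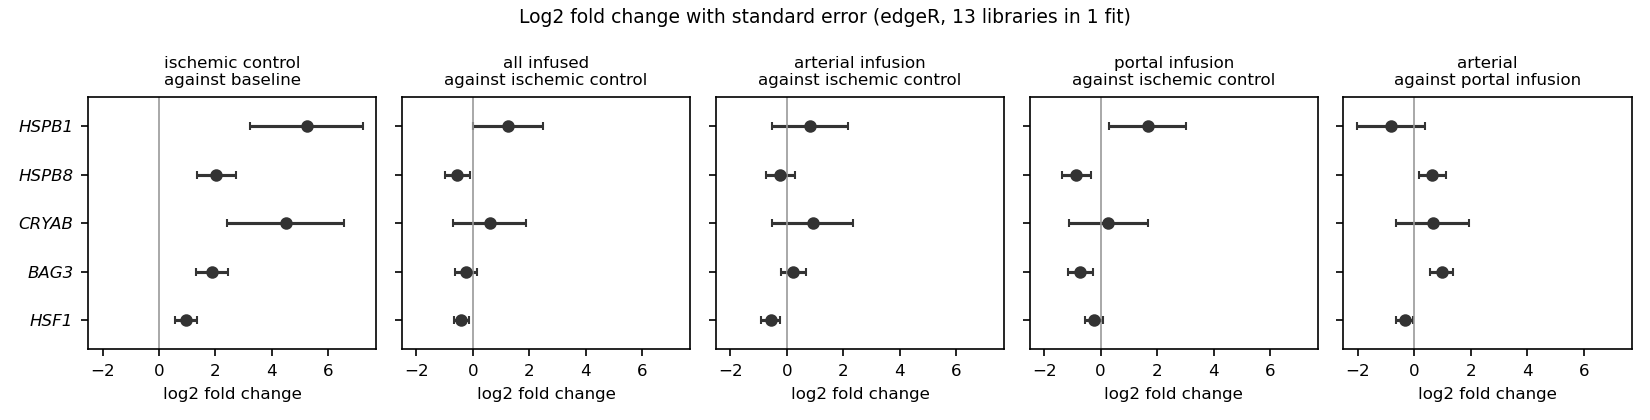
Log2 fold change with its standard error, derived from the F statistic of the test, for each member in 5 comparisons (edgeR, 13 libraries in 1 fit). In ischemic controls against baseline the 5 values lie between 0.96 and 5.24, and against ischemic controls the infused livers lie between -0.86 and 1.66.

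Infusion of BM-MSCs was compared with ischemic controls over all 8 infused livers and by route. Per the paper, the cells were given in buffered saline soon after reperfusion, by arterial catheter or by needle into the portal vein. It does not say whether controls received saline, a catheter or a needle. The cells therefore cannot be told apart from the saline and the way of giving it here. In all infused livers the log2 fold change was 1.24 with a standard error of 1.24 for HSPB1, 0.60 with 1.29 for CRYAB, -0.54 with 0.45 for HSPB8, -0.24 with 0.39 for BAG3 and -0.40 with 0.28 for HSF1. Infused livers overlapped with controls for each of the 5 genes. By the quasi-likelihood test of edgeR (Benjamini-Hochberg) 0 of the 5 members and 0% of all genes had an adjusted p under 0.05, and 0 members and 2.14% of all genes had an unadjusted p under 0.05. DESeq2 called 0 members and 0.00408% of genes over the 13 libraries, and 0% over these 11 alone. With no filter on low counts edgeR called 0 members and 0.0763% of genes.

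Except for HSF1, the size of these values rested on single libraries, and so did the direction for CRYAB, HSPB8 and BAG3. For HSPB1 in all infused livers against controls, leaving out any 1 library did not change the sign, the lowest value being 0.20 without portal infusion 1. That of CRYAB became -0.67 without portal infusion 1 and 3.42 without ischemic control 3. Without the 4 libraries that stood apart the values were -1.37 with a standard error of 0.84 for HSPB1 and -1.85 with 1.14 for CRYAB. HSPB8 turned to 0.46 and BAG3 to 0.14 without ischemic control 3, while HSF1 stayed between -0.50 and -0.33 with each library left out.

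By route, the arterial livers against controls gave log2 fold changes of 0.82 for HSPB1, 0.92 for CRYAB, -0.23 for HSPB8, 0.24 for BAG3 and -0.57 for HSF1, with standard errors of 1.33, 1.44, 0.52, 0.45 and 0.32. Controls served in both routes' comparisons. The portal livers against the same controls gave 1.66, 0.28, -0.86, -0.72 and -0.23 in the same order of genes, with standard errors of 1.37, 1.41, 0.52, 0.45 and 0.32. By the quasi-likelihood test of edgeR (Benjamini-Hochberg) 0 members were called in either comparison, against 0% of all genes, and 0 members had an unadjusted p under 0.05, against 1.57% and 2.79% of all genes. HSF1 was the 1 member without overlap, lower in all 4 arterial livers than in all 3 controls, a pattern that 1.57% of all genes showed. Genes higher in all arterial livers made up 1.61%, and the portal livers did not overlap with controls for 1.39% of genes that were higher and 2.33% that were lower. DESeq2 called 0 members in either comparison, among 0% of genes for the arterial route and 0.0163% for the portal route over the 13 libraries, and among 0.0131% for the portal route with its groups alone. In that last setting DESeq2 gave CRYAB no adjusted p, so CRYAB was not among the genes tested there. With no filter on low counts 0 members were called, among 0.0441% and 0.0562% of genes.

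Each route's values moved with single livers too. Without arterial infusion 1 the arterial value of HSPB1 was -0.52 and that of CRYAB -0.02, and without arterial infusion 4 that of BAG3 was -0.02. Leaving out ischemic control 3 gave 0.79 for HSPB8, 3.77 for CRYAB and 0.63 for BAG3 in the arterial livers, and 0.13 for HSPB8 and 3.08 for CRYAB in the portal livers. Without portal infusion 1 the portal value of HSPB1 was -0.42 and that of CRYAB -2.27. CRYAB also turned to -0.28 without ischemic control 1 and to -0.20 without ischemic control 2.

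Without the 4 libraries that stood apart, the arterial values for HSPB1 and CRYAB against controls were -0.29 and -0.46, and the portal values for these genes became -2.45 and -3.23, with standard errors of 1.11 and 1.57. These rest on portal infusions 2 and 3 and on ischemic controls 1 and 3, which differ among themselves by 15.8 times for HSPB1. The route itself was compared in arterial against portal livers. There the log2 fold change was -0.84 with a standard error of 1.21 for HSPB1, 0.64 with 1.30 for CRYAB, 0.63 with 0.49 for HSPB8, 0.96 with 0.42 for BAG3 and -0.34 with 0.30 for HSF1. By the quasi-likelihood test of edgeR (Benjamini-Hochberg) 0 members and 0% of genes were called, and 1 member, BAG3, had an unadjusted p under 0.05, against 2.4% of genes. No member was without overlap between the routes, where 0.91% of genes were higher and 0.498% lower in every arterial liver. With no filter on low counts 0 members were called, among 0.0201% of genes. Without portal infusion 1 the value of HSPB1 turned to 1.25 and that of CRYAB became 3.20, and without arterial infusion 1 that of CRYAB turned to -0.30. Without the 4 libraries that stood apart they were 2.16 and 2.77. With each library left out BAG3 stayed between 0.70 and 1.196.

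Over the 11 livers at 6 h, on log2 CPM, Pearson's r was 0.88 between HSPB1 and CRYAB (Spearman's rho 0.89) and 0.79 between HSPB8 and BAG3 (rho 0.87). Between HSPB1 and BAG3 it was 0.31, and between HSPB1 and HSPB8 it was 0.34. CRYAB lay between, at 0.55 with BAG3 (rho 0.52) and 0.52 with HSPB8 (rho 0.69). HSF1 was at -0.29 with BAG3, -0.17 with HSPB8, 0.14 with CRYAB and 0.42 with HSPB1. Ranked by r with HSPB1 among 12856 genes, CRYAB was at rank 91, HSPB8 at 3267 and BAG3 at 3386. For HSPB8, BAG3 was at rank 3. In the 7 livers left without the 4 libraries that stood apart, r between HSPB1 and BAG3 was 0.90, between HSPB1 and HSPB8 0.87, between HSPB1 and CRYAB 0.97 and between HSPB8 and BAG3 0.78. The lower values between HSPB1 and the pair of HSPB8 and BAG3 were thus seen only with the 4 libraries included. These livers share their normalization and span 3 groups, and the values describe them only.

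**Figure D3:**
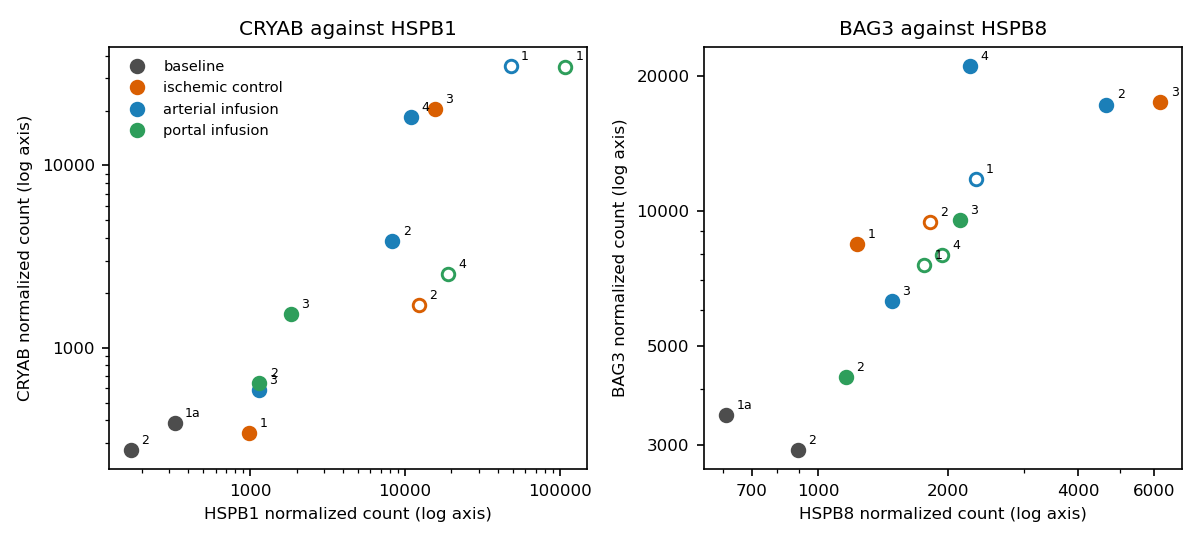
Normalized counts (log axes) of CRYAB against HSPB1 and of BAG3 against HSPB8 in the 13 libraries, coloured by group and numbered by replicate, with open circles for the 4 libraries that stood apart. Arterial infusion 1 and portal infusion 1 are at the top for HSPB1 and CRYAB, and ischemic control 3, arterial infusion 2 and arterial infusion 4 are highest for BAG3.

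Portal infusion 1 and arterial infusion 1, both among these 4 libraries, had the highest levels of HSPB1 and CRYAB, while BAG3 was at 2.35 and 3.67 times its baseline mean there and HSPB8 at 2.34 and 3.07 times. DNAJB1, an HSP40 co-chaperone and a target of HSF1, was at 7058 and 2169 normalized counts in these livers, between 2173 and 3607 at baseline and at 25685, 30621 and 14131 in ischemic control 3, arterial infusion 2 and arterial infusion 4. HSPA8, the constitutive HSP70 that works with BAG3, was at 8916 in portal infusion 1 and 3903 in arterial infusion 1, under the baseline values of 25996 and 38290.5. It was also under both baseline values in ischemic control 2, at 7572, and in portal infusions 2, 3 and 4, at 10908, 20138 and 20263. Portal infusion 1 and arterial infusion 1 were thus not those with the most DNAJB1 or HSPA8. The chaperone HSP90AA1 differed, at 65005 in arterial infusion 1 and 38214 in portal infusion 1, against 19944 and 20068 at baseline. Its highest level was 65099, in ischemic control 3, which also had the most HSPA8, at 66162. Over the 11 livers, Pearson's r with HSPB1 was -0.20 for DNAJB1, -0.44 for HSPA8 and 0.29 for HSP90AA1. In the 7 livers it was 0.85, 0.54 and 0.96.

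**Figure D4:**
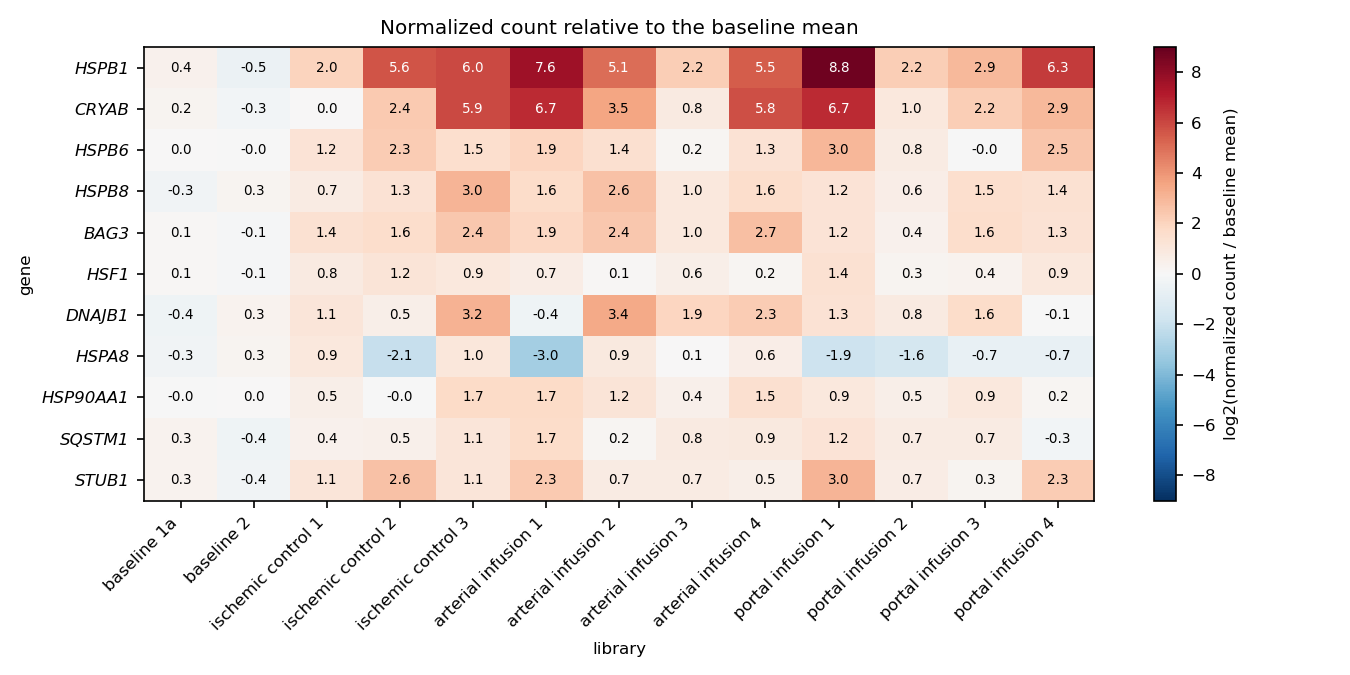
Normalized count of the 5 members and of HSPB6, DNAJB1, HSPA8, HSP90AA1, SQSTM1 and STUB1 in each library, as log2 of its ratio to the baseline mean. HSPB1 and CRYAB reach the largest values, in portal infusion 1 and arterial infusion 1. HSPA8 lies below its baseline mean there, and also in ischemic control 2 and portal infusions 2, 3 and 4.

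Of the other small heat shock proteins, 6 of 8 listed genes had a row and 1, HSPB6, passed the filter. HSPB6 (HSP20), a partner of HSPB1 in mixed oligomers, had a mean of 544 ± 24.9 (SD, n = 2) at baseline and of 1820 ± 739 (SD, n = 3) in ischemic controls. Its log2 fold change was 1.72 (SE 0.73). It was highest in portal infusion 1 at 4308, portal infusion 4 at 3034 and ischemic control 2 at 2660, and at 541 in portal infusion 3 it lay within the baseline range. These highest livers are all among the 4 libraries that stood apart. HSPB6 is a short gene like HSPB1, with a span of 2573 bases, and the part of span in its level was not tested. Pearson's r with HSPB1 was 0.83 over the 11 livers at 6 h and 0.63 in the 7 livers without those libraries. HSPB3, HSPB7 and CRYAA had at most 11 reads in any library, and HSPB9 and ODF1 had 0 in all 13, where a count of 0 allows up to 3 reads in a library. These 5 genes were therefore near or under the limit of detection.

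The other 5 BAG proteins were all tested. Their median log2 fold change in controls against baseline was 0.20, with 4 higher and 1 lower, and BAG3, at 1.87, lay above that median. The highest of them was BAG2, an inhibitor of the ubiquitin ligase STUB1, at 2.13 with a standard error of 0.79. BAG5 lay at the lowest end, at -0.74. In infused livers against controls their median was -0.20, and 0 were called in either comparison.

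Among the HSF family and the regulators of HSF1, 5 of 8 genes were tested. All 5 lay above baseline in controls, with a median log2 fold change of 0.64, when 50.2% of all genes did, and 0 were called. DNAJB1 was at 2.06 with a standard error of 0.97, and HSP90AA1, the chaperone that holds HSF1 inactive, was at 0.93 with 0.57. HSPA1A and HSPA1B had no row under their symbols and are not analysed here. In infused livers the median was 0.01, with 3 higher and 2 lower.

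Chaperone-assisted selective autophagy is the route by which BAG3, HSPB8, HSPA8 and STUB1 deliver damaged proteins to lysosomes. All 13 genes listed for it were tested. In controls against baseline 7 were higher and 6 lower, with a median of 0.22, and 0 were called. STUB1, the ubiquitin ligase of the complex, was at 1.77 with a standard error of 0.81. It had 5069 normalized counts in ischemic control 2 and 1750 and 1705 in ischemic controls 1 and 3. Baseline libraries had 987 and 637. The highest levels of STUB1, from 3893 to 6722, were all in the 4 libraries that stood apart. No other liver at 6 h was above 1750. SQSTM1, the autophagy receptor p62, was at 0.66 with a standard error of 0.54. FLNC, a filamin that this route clears in muscle, was at 2.06 with a standard error of 1.54, from 918 normalized counts in ischemic control 3 and 11.9 and 87.6 in the other controls. In infused livers against controls 4 were higher and 9 lower, with a median of -0.08, beside a median of -0.02 over all genes.

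The genes whose pattern was most like each member's were ranked among the 12857 genes tested that have a symbol, by Pearson's r of log2 CPM over the 13 libraries. For HSPB1 they were NUDC, GATA3, PCGF2, DYNLL1 and NUCB1, with r between 0.94 and 0.96. Those of CRYAB were S100A10, ITGB3, SLC26A11, HSPB1 and BOK, with r between 0.89 and 0.92. HSPB8 had BAG3 first, at 0.86, then HSPE1, DNAJA4, GNG11 and HSPA6. BAG3 had HSPE1 first, at 0.92, then SLA, HSPB8, NUDT7 and MBNL3. HSF1 had EPN1 at 0.97, then UBTD1, SART1, WDR5 and U2AF2, and none of these was a member. The order depended on the libraries used. In the 11 livers at 6 h alone and in the 9 libraries without the 4 that stood apart, EPN1 stayed first for HSF1, while NUDC was at rank 10 and 33 for HSPB1, S100A10 at 3 and 46 for CRYAB, BAG3 at 3 and 49 for HSPB8 and HSPE1 at 3 and 4 for BAG3. MBNL3, the fifth for BAG3, was at rank 404 and 127.

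Because HSPB1 is a short gene and short genes were high in the libraries that stood apart, its level was also taken relative to the 531 genes tested that span up to 3000 bases. On the log2 scale, against the mean of the log2 values at baseline, HSPB1 was at 8.84 in portal infusion 1, where the median of these genes was 0.98, a difference of 7.87. The difference was 6.74 in arterial infusion 1, 5.74 in portal infusion 4, 5.48 in ischemic control 3 and 4.397 in ischemic control 2, which had the highest median of short genes at 1.30. CRYAB, set against the 2031 genes that span over 3000 and up to 10000 bases, was 6.38 above their median in arterial infusion 1 and 6.33 in portal infusion 1. For HSPB8, BAG3 and HSF1, which span over 10000 and up to 30000 bases, the median of that range lay between -0.20 and 0.11 in the livers at 6 h. The span is that of the gene and not of its transcript, and the part of span or of RNA quality in the levels of HSPB1 and CRYAB was not tested.

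**Figure D5:**
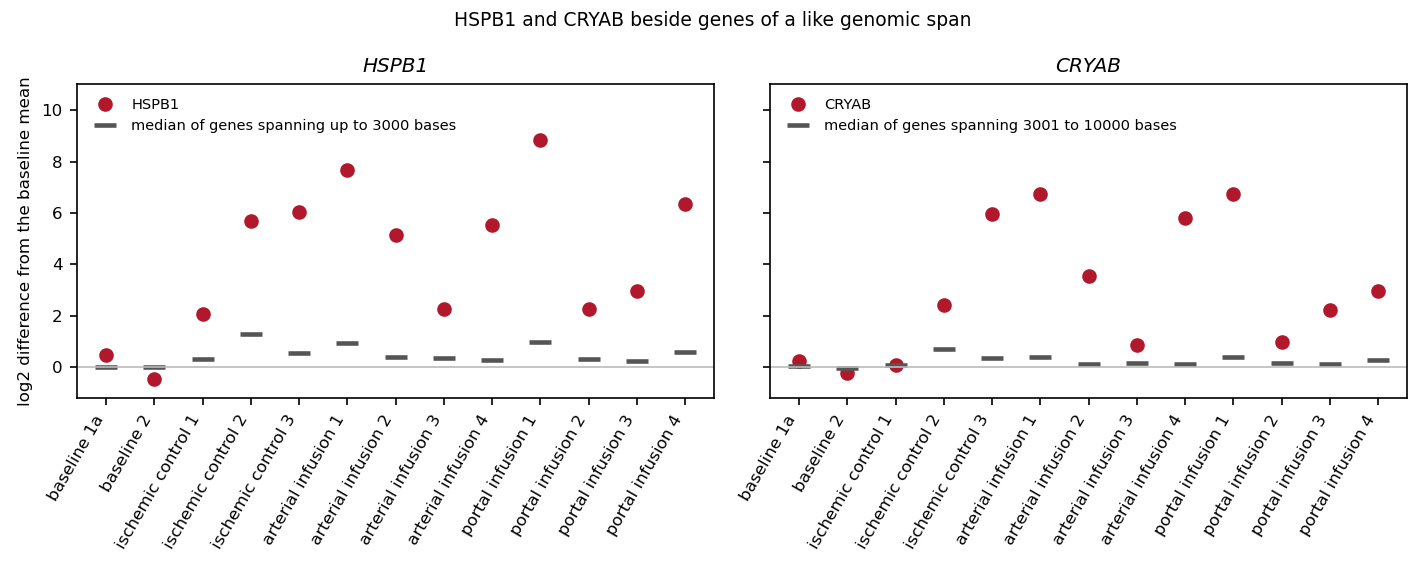
HSPB1 and CRYAB in each library (points) and the median of genes tested with a genomic span in the same range (bars), as log2 differences from the baseline mean. HSPB1 is 7.87 above the median of genes that span up to 3000 bases in portal infusion 1 and 1.74 above it in ischemic control 1.

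HSPB1, CRYAB and HSPB8 are abundant in muscle, so markers of muscle and of other cells were read in the same libraries. The 5 of 7 skeletal or diaphragm muscle genes in the table (ACTA1, CKM, MYH1, MYH7 and TNNT3) had under 10 reads each in every library, and their summed normalized count was 0 in portal infusion 1 and arterial infusion 1. For stellate cells and smooth muscle, all 9 genes were present, with a summed normalized count of 9191 in portal infusion 1 and 6455 in arterial infusion 1, between 16199 and 22719 at baseline, and of 36116 in ischemic control 3 and 29578 in arterial infusion 4. The 6 cholangiocyte genes summed to 705 and 787 in portal infusion 1 and arterial infusion 1, between 541 and 1034 at baseline, and to 2873 in ischemic control 3 and 6543 in arterial infusion 4. The 2 livers highest in HSPB1 were not high in these lists, whereas ischemic control 3 and arterial infusion 4 were high in the stellate and cholangiocyte lists. Livers with little CRYAB were also above baseline there. Ischemic control 1 had a stellate sum of 29366, with CRYAB at 341 and BAG3 at 8413. Portal infusion 2 had a cholangiocyte sum of 1917, with CRYAB at 638 and BAG3 at 4245. The 4 of 5 endothelium genes in the table summed to 4740 and 7401 at baseline, and to 3179 in portal infusion 1 and 3177 in arterial infusion 1. Their sum was highest in arterial infusion 4, at 10725, and was 7358 in ischemic control 3, within the baseline range. The part of these cells in the CRYAB and BAG3 levels of ischemic control 3 and arterial infusion 4 was not tested.

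Blood cell genes moved with some of the same libraries. The 4 of 5 erythroid genes in the table summed to between 1009 and 1870.4 at baseline, 29263 in ischemic control 2, 18156 in portal infusion 1, 13749 in arterial infusion 4 and 4762 in arterial infusion 1. The 4 of 6 neutrophil genes summed to between 632 and 705 at baseline, 11431 in ischemic control 2 and 7945 in arterial infusion 1, with MPO under 10 reads in every library. The 5 lymphocyte genes summed to 290 and 366 at baseline and were highest in portal infusion 1 at 1228, followed by ischemic control 3 at 1042. The 5 macrophage genes summed to between 19307 and 30788 in controls and between 10522 and 17364 in infused livers, without overlap. Of single genes tested, 0.34% were lower and 0.225% higher in every infused liver than in every control. At baseline the sum was 19776 in 1a, within the range of controls, and 11731 in 2, within that of infused livers. Immediate early genes, 6 of 6 present, summed to 2909 in arterial infusion 1, the lowest of the 13 libraries, and to 43247 in arterial infusion 2, the highest. The 5 of 6 mesenchymal stromal cell genes, counted on the pig genome, summed to between 5939 and 10979 in controls and between 6576 and 11064 in infused livers. The part of these cells in the levels of HSPB1 and its partners was not tested.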

How the data were processed

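Liver RNA was sequenced in 13 libraries. After removal of poor reads, the authors aligned to Sscrofa11.1 (HISAT2) and deposited raw counts per gene from FeatureCounts on the Ensembl annotation, with no normalization. Tool versions, strand setting and multi-mapping are not given in the sources used here.

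Groups and replicate numbers came from the sample labels, and 0 columns were left without a sample. Nothing states that replicate numbers mark shared pigs, and p-values measure the spread between these livers, with any difference of the lobe sampled. Chi-square per gene between libraries of a group was at least 77.1, so no library was a copy. Tests used R 4.3.3 and edgeR 4.0.16 (filterByExpr, TMM, quasi-likelihood test, Benjamini-Hochberg over 16481 genes, threshold 0.05) with all 13 libraries in 1 fit, and were tested on simulated data. DESeq2 1.42.0 gave size factors and an alternative. Standard errors beside edgeR's log2 fold changes were derived from its test, as the absolute log2 fold change over the square root of the F statistic. In controls against baseline, DESeq2's own standard errors over all 13 libraries were 1.47 for HSPB1 and 1.79 for CRYAB. They were 0.68 for HSPB8, 0.56 for BAG3 and 0.41 for HSF1. The common biological coefficient of variation was 0.729. Spans and coordinates are from RefSeq on Sscrofa11.1, with a span for 92.6% of the 12857 symbols tested. The adjustment for span was chosen after seeing the data. No sequences of these genes are used here.

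The members and the lists of other genes and cell markers were chosen with earlier results of these data known, as were the 4 libraries left out together. The genes named were those on the lists, with up to 4 examples by level or by a role beside a member, and the first 5 genes most like each member. BAG2, BAG5 and FLNC were picked as examples after their values were seen. Precision is limited by 2 to 4 livers per group and by counting error at low counts.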

Additional observations from a re-analysis of the deposited data

Results flagged for a closer look

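Portal infusion 1 lay far from the other portal livers for 2 genes. Its normalized count of HSPB1 was 108913, and the gap to the next portal liver took 0.833 of the range of the group. For CRYAB it was 34815, with a gap of 0.945 of the range. Dixon's 95% limit for 4 livers is 0.829, which chance passes in about 1 in 20 groups of normally distributed values, and 10 groups (5 genes in 2 infusion groups) were examined. On the log2 scale, a check chosen after seeing the data, the gaps were 0.382 and 0.655 of the range, both under that limit.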

How the results depend on the processing

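By the quasi-likelihood test of edgeR (Benjamini-Hochberg), 0 genes were called in each of the 5 comparisons, and the count stayed 0 with RLE or upper quartile normalization, at least 10 counts in every library, the compared groups alone, and all 11 livers at 6 h against baseline. When libraries were left out singly, the lowest and the highest count were 0 in each comparison. The replicate number as a replicate block also left 0 genes. Deviations from the group means correlated at 0.42, 0.29, 0.43 and -0.10 between arterial and portal livers 1 to 4 of the same number, and between -0.42 and 0.10 in the other same-numbered pairs, and 4 of the 8 infused livers correlated best with their own number across routes. Arterial and portal livers of different numbers correlated between -0.525 and 0.346, and the same-numbered pairs 1 and 3 lay above this range. Not every pair was above 0.1 and no label ties the numbers to a pig or day. The numbers were therefore not taken to pair the livers, and the replicate block is given as an alternative only. DESeq2 over all 13 libraries called 5 genes in controls against baseline, 1 in all infused livers against controls, 4 for the portal route and 1 between routes. DESeq2 over the compared groups alone called 166 in controls against baseline and 3 for the portal route. With no filter on low counts the counts were 30, 19, 11, 14 and 5 in the order of controls against baseline, all infused, arterial and portal against controls, and arterial against portal, and HSPB1 and CRYAB were among the 30. Without the 4 libraries that stood apart, 1 gene was called in all infused and 1 in arterial livers against controls. The cause of these differences was not tested. Of the 110 values of the members in controls against baseline under the alternatives, 0 had the opposite sign, and of 110 each in the other comparisons 7 (all infused), 9 (arterial), 9 (portal) and 3 (arterial against portal) did. Under the replicate block HSPB1 against controls was -1.11 in all infused, -1.27 in arterial and -0.94 in portal livers, and CRYAB -0.66, -0.04 and -1.28, each with the opposite sign.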
